A study of Mus musculus with 6 samples.

Results

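A set of 161 genes was on in B16-F1R2 and silent in B16-F1. The set was selected on measured values: a gene was taken when its FPKM (mapped fragments, scaled to the length of the transcript in kilobases and to 1000000 mapped reads) was at least 1 in both B16-F1R2 libraries and under 0.1 in both B16-F1 libraries. Symbols of small RNA genes and of collagens were left out, and 7 genes that met both limits were dropped for that reason. The 161 genes were 0.709% of the 22711 remaining genes of a table of 23951. The same rule turned round, on in B16-F1 and silent in B16-F1R2, gave 28 genes. The difference between B16-F1R2 and B16-F1 chose the members, so it is described below by values and carries no test.

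The series holds 2 RNA sequencing libraries of each of 3 mouse melanoma lines, all grown in the same medium without treatment. B16-F1, of low metastatic potential, was bought from a cell repository (ATCC). B16-F1R2 (from a metastasis in a lymph node) and B16-F1R2L (from a lung metastasis that itself derived from a lymph node metastasis) were both supplied by an academic laboratory in Zurich, so line and supplier cannot be told apart. Whether both libraries of a line stem from different cultures is not stated in the labels, and each p-value below measures only the spread between these libraries. About 12600000 to 14700000 reads per library were estimated from the smallest FPKM steps, and between 10617 and 11168 genes reached 1 FPKM in a library.

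Melanocytes arise from the neural crest and share regulators with glia and peripheral neurons, whereas genes of lymphocytes, skeletal muscle, liver or germ cells are normally closed in them. Genes used in a single tissue often have promoters with few CpG dinucleotides, while genes used in every cell mostly start inside CpG-rich stretches. Cultured tumour lines can carry transcripts of unrelated tissues, and the level of such a transcript says nothing about whether its protein is made.

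The 300 bases around the annotated start, from 250 before it to 50 after it, are shown for 5 members, because the CpG content of this window was compared between the members and other genes. They are the 4 members with the highest level in B16-F1R2 that have exactly 1 window in the RefSeq table, and Ngfr, the highest of the members with exactly 1 window whose window holds at least 15 CpG. The sequences are those of RefSeq (build GRCm38.p6) and run 5′ to 3′ on the strand of the gene, with every CpG in capitals. Each matched the NCBIM37 (mm9) assembly once: Fxyd1 at chr7:31839823-31840122 on the minus strand, Cyct at chr2:76198461-76198760 on the minus strand, As3mt at chr19:46781698-46781997 on the plus strand, Gm10451 at chr12:77545234-77545533 on the plus strand, and Ngfr at chr11:95448963-95449262 on the minus strand.
Fxyd1: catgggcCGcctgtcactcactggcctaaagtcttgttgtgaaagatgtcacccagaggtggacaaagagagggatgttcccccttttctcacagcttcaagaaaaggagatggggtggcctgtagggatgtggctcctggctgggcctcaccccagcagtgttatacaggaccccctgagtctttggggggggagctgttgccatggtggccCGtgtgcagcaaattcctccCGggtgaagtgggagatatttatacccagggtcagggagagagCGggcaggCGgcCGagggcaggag
Cyct: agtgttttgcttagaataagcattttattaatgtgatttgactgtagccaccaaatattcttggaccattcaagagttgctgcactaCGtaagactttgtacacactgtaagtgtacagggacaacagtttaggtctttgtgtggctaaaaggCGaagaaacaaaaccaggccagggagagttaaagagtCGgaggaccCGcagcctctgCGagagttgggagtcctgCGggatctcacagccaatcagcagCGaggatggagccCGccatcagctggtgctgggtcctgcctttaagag
As3mt: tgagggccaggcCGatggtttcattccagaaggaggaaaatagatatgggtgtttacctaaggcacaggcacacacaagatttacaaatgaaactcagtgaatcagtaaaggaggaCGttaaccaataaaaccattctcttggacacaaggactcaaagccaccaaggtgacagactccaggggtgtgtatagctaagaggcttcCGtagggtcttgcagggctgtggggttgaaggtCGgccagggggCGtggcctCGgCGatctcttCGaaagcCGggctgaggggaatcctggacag
Gm10451: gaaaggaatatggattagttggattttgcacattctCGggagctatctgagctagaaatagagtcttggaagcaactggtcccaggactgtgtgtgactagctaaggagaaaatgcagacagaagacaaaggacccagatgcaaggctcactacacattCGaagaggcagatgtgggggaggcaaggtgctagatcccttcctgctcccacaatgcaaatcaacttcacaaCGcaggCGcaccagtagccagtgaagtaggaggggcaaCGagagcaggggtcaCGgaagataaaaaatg
Ngfr: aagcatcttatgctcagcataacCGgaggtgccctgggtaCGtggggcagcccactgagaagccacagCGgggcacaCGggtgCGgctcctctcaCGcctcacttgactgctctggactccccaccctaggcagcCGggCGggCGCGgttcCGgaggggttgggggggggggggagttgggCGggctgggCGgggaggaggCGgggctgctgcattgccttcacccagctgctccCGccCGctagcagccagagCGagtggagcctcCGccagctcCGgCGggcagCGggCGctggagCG

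The windows of Fxyd1 and Gm10451 hold 6 CpG each, that of Cyct 8 and that of As3mt 9, against 23 in that of Ngfr. By the mm9 annotation the windows of Cyct, As3mt and Ngfr span the start of the gene. The Fxyd1 window lies inside the annotated gene, downstream of the annotated start, and the Gm10451 window ends just upstream of the annotated gene. Of the 161 members, 130 (80.7%) had at least 1 window, and their median was 7.25 CpG, with quartiles of 5 and 13.9. The 8959 other genes that passed the filter on low values and had a window had a median of 21 CpG (quartiles 14 and 29). The 6574 genes with a window and with less than 0.1 FPKM in all 6 libraries had a median of 3 (quartiles 1 and 9). Members therefore lay between these sets. The class of 5 to 9 CpG held 46.9% of the members, 8.71% of the other genes that passed the filter and 18.1% of the silent genes. Windows with at least 15 CpG made up 22.3% of the members, 74.3% of the other genes that passed and 16.4% of the silent genes. The 20 genes of the turned-round set that had a window showed a median of 17 CpG.

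**Figure D1:**
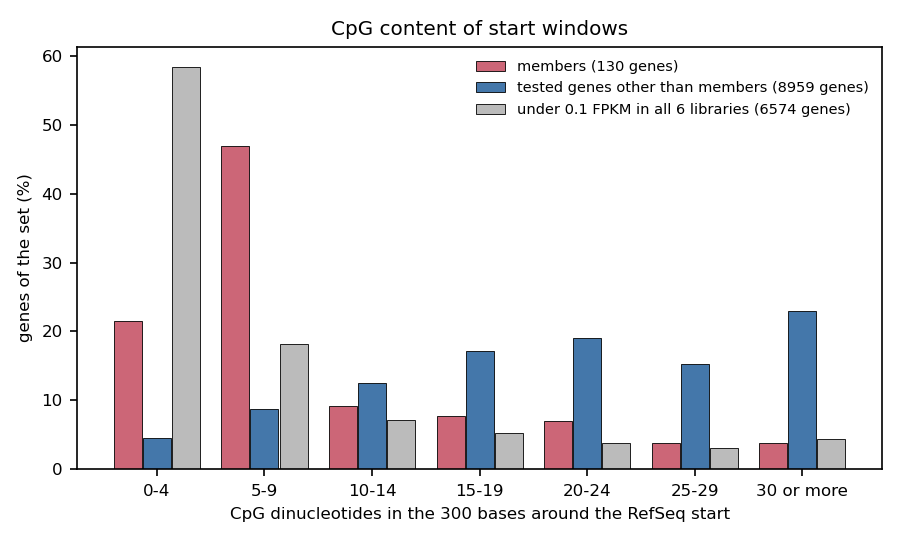
Share of genes (%, vertical axis) by the number of CpG dinucleotides in the 300 bases around the RefSeq start (horizontal axis), for 130 members (red), 8959 other genes that passed the filter on low values (blue) and 6574 genes under 0.1 FPKM in all 6 libraries (grey). The red bar is highest at 5 to 9 CpG, where it reaches 46.9%, while the blue bars peak at 30 or more.

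Short motifs were searched on both strands of the 168 windows of members, and their shares are descriptions without a test. CATGTG, a form of the E-box that the melanocyte factor MITF can bind, was found in 14.9% of the windows of members, in 14.2% of all 32851 RefSeq windows and in 11.4% of the windows of genes in the FPKM table. AAGGTCA, the kind of site read by Nr5a1, was found in 4.76%, 4.72% and 4.04% of these. TATAAA was found in 15.5%, 13.6% and 12.3%, and of the windows printed above only that of Fxyd1 held it. None of these 3 motifs contains another. The other genes that passed the filter held CATGTG in 8.1%, AAGGTCA in 3.1% and TATAAA in 6.65% of their windows, and the genes under 0.1 FPKM in all 6 libraries in 16.2%, 5.21% and 21.3%. A match is a run of letters and not evidence of a bound site.

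The levels of the members in B16-F1R2 were mostly low. Their means over the 2 B16-F1R2 libraries ran from 1.05 to 26.9 FPKM with a median of 2.43 and quartiles of 1.58 and 4.75. Only 4 members reached 20 FPKM and 15 reached 10, whereas 69 stayed under 2. In B16-F1, 71 members were listed at 0 in both libraries, 44 in 1 library and 46 in neither. At the estimated depth, 0.1 FPKM in B16-F1 corresponds to a median of 3.33 reads over the members (from 0.379 to 16), and it is worth less than 3 reads for 65 of them. For short genes, silent in B16-F1 thus means that few reads could have been seen, and a level of 0 is a value of the table rather than proof of absence. The mean level in B16-F1R2 corresponds to a median of 93.9 reads, and to fewer than 30 reads for 13 members.

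The limits of the rule cut through a continuous range. The members just inside the B16-F1R2 limit were Gna14 (a G protein subunit) with 1.33 and 1.00 FPKM, Slc39a2 (a zinc transporter) with 1.01 and 1.14, and Sncg (gamma-synuclein) with 1.04 and 1.06. Just outside it lay Myo1d (an unconventional myosin) with 1.15 and 1.00, which is just under 1 before rounding, Gp9 (a platelet glycoprotein) with 0.992 and 1.1, and Angptl4 (a secreted inhibitor of lipoprotein lipase) with 1.32 and 0.975. At the B16-F1 limit, Upk3bl (a relative of the uroplakins) with 0.0982 and 0, Art4 (which carries a blood group antigen) with 0.0934 and 0.0973 and Ccdc80 with 0.0962 and 0.0600 were just inside. Hoxb5 (a homeobox factor) with 0 and 0.101, Mal (a protein of myelin and lymphocytes) with 0.102 and 0.0549 and Esr1 (the oestrogen receptor alpha) with 0.0513 and 0.107 were just outside.

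**Figure D2:**
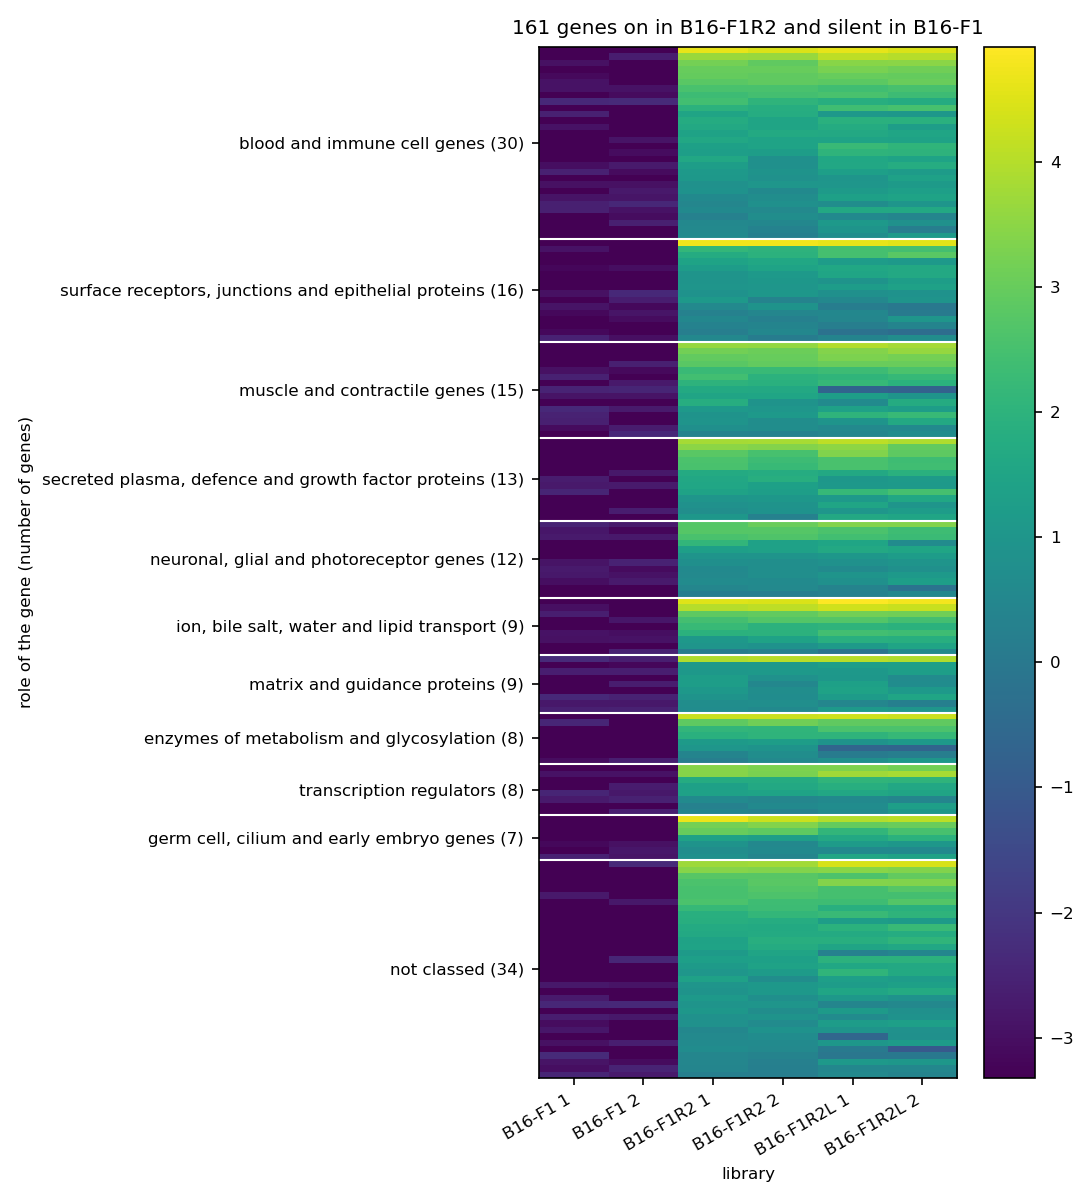
Level of the 161 members (rows, on the log2(FPKM + 0.1) colour scale) in the 6 libraries (columns), grouped by the role of the gene, with the number of genes in parentheses. Both B16-F1 columns are dark, as the rule requires, and the 4 columns of the metastasis lines look alike except for a few rows such as Hspb7 in the muscle group.

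Nearly all members stayed on in B16-F1R2L, a line that the rule did not use. In both B16-F1R2L libraries 150 of the 161 members (93.2%) were at 1 FPKM or more, and all 161 were above 0.1, so that none was silent. Of the other genes that were at 1 FPKM or more in both B16-F1R2 libraries, 99.4% stayed at that level in B16-F1R2L, and 99.1% of those whose B16-F1R2 mean lay within the range of the members did. The share of members is below that background. Of the 69 members with a mean under 2 FPKM in B16-F1R2, 59 (85.5%) stayed on, where 90.6% of other genes under 2 FPKM did. Of the 92 members at 2 FPKM or more, 91 (98.9%) stayed on, and the exception was Hspb7.

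The 11 members that were neither on nor silent in B16-F1R2L were Hspb7, Cyp1a1, Pcdh12, 1600019K03Rik, Hist1h4c, Gyltl1b, Gngt2, Upk3bl, Shroom3, Eda2r and Slc39a2. Of these, Hist1h4c had the lowest single value of any member, with 0.940 and 0.395 FPKM in B16-F1R2L. It encodes a histone H4, and 43.6% of its 50-base stretches also occur in other genes, so its value is uncertain. Gyltl1b (a glycosyltransferase of dystroglycan) stood at 0.974 and 1.04 FPKM and Shroom3 (which organises apical actin) at 1.32 and 0.933, so both missed the limit in a single library. Read from the other side, 185 genes were on in B16-F1R2L and silent in B16-F1, and 150 of them were members. The other 35 had means of 0.442 to 1.15 FPKM in B16-F1R2, with a median of 0.846. No gene outside the symbols left out was on in both B16-F1R2L libraries and under 0.1 FPKM in all libraries of B16-F1 and B16-F1R2. Of the 28 genes of the turned-round set, 22 were also under 0.1 FPKM in both B16-F1R2L libraries.

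The levels in the metastasis lines were also close to each other. For 154 members the B16-F1R2L mean lay within 2-fold of the B16-F1R2 mean, 3 were more than 2-fold higher (Art1, Mndal and Mst1) and 4 were more than 2-fold lower (Hspb7, Cyp1a1, Hist1h4c and 1700019B21Rik). No share of all genes tested is set beside these counts, so they do not mark the members out. The median ratio was 1.14, with 0.643 and 1.72 as the 5th and 95th percentiles. On the log2(FPKM + 0.1) scale the median difference, B16-F1R2L minus B16-F1R2, was 0.17 over the members and 0.02 over the 11379 genes tested. After rescaling each library to a sum of 1000000 these became 0.28 and 0.13, so the gap between them stayed at 0.14 to 0.15. The libraries of the lines did not overlap for 77 members that were higher in B16-F1R2L (47.8%, against 35.9% of all genes tested) and for 31 that were lower (19.3%, against 29.2%). The median difference between the replicates of a line was 0.15 in B16-F1R2 and 0.16 in B16-F1R2L over the members, and 0.09 and 0.10 over all genes tested.

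The test across all genes (limma on log2(FPKM + 0.1) with all 6 libraries, Benjamini-Hochberg adjusted p under 0.05) called 12 members higher and 4 lower in B16-F1R2L than B16-F1R2. These are 7.45% and 2.48% of the members, where 12.1% of all genes tested were called higher and 10.5% lower. The 161 members all passed the filter of this test because the rule required it, and their B16-F1R2 values had been chosen to be at least 1 FPKM. The numbers of calls depended on single libraries and on the fit. Without the first B16-F1R2 library limma called none in either direction, with 18 higher and 2 lower at an unadjusted p under 0.05. Without the second B16-F1R2 library it called 1 higher and none lower (4 lower at an unadjusted p under 0.05). Without the first B16-F1R2L library it called 1 higher and 3 lower, and without the second none higher (14 higher at an unadjusted p under 0.05) and 1 lower. A fit to only the 4 libraries of the lines compared gave 25 higher and 7 lower, and the rescaling to a sum of 1000000 gave 14 higher and 2 lower. All 16 called members kept their direction under every alternative that could be fitted for them. The libraries of the metastasis lines did not overlap for any of the 16, so most alternatives could not have reversed it. Only Hspb7 also stayed past the threshold in each. The others missed it in 2 of 12 alternatives (Cyp1a1) to 11 of 15 (Zp3), among them Vav1 and P2rx1 in 7 of 14 each, 1700019B21Rik in 7 of 14, Mst1r in 6 of 15, Wdr93 in 6 of 14, Mndal and Epsti1 in 5 of 14 each and Fam167b in 5 of 15.

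**Figure D3:**
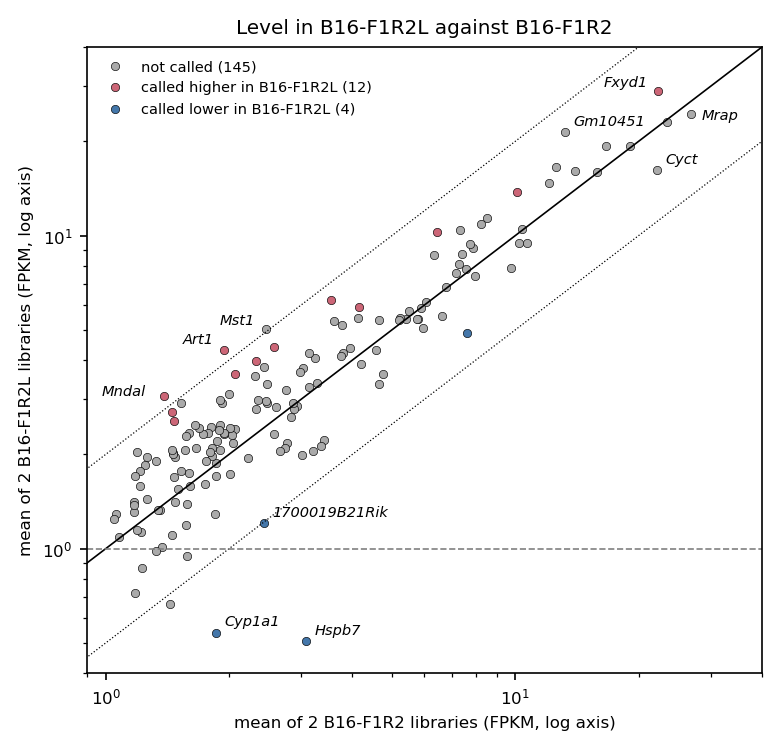
Mean FPKM of each of the 161 members in B16-F1R2L (vertical, log axis) against its mean in B16-F1R2 (horizontal, log axis), each over 2 libraries. The solid line marks equal levels, the dotted lines 2-fold differences and the dashed line 1 FPKM; 154 points lie between the dotted lines, and Hspb7 and Cyp1a1 lie furthest below them.

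The marker genes of the set were its most abundant members. Mrap encodes an accessory protein that the ACTH receptor Mc2r needs to reach the cell surface and that also binds other melanocortin receptors. It was at 0 in B16-F1, at 27 and 26.8 FPKM in B16-F1R2, then at 25.1 and 23.6 in B16-F1R2L, so both metastasis lines carried it at about the same level (log2 difference -0.14, SE 0.09, adjusted p = 0.27 from limma). Its receptor Mc2r was listed at 0 in all 6 libraries, as were Mc3r, Mc4r and Mc5r. Mc1r, the melanocortin receptor of pigment cells, was present in every library, at 91.4 and 91.8 FPKM in B16-F1, 63.7 and 60.6 in B16-F1R2, then 95.3 and 90.8 in B16-F1R2L. Of the 12 other genes of a melanocortin list, 4 were tested between B16-F1R2 and B16-F1, where 28.2% of all genes tested were higher and 27.2% lower. None was higher and 2 were lower, Mc1r (log2 difference -0.56, SE 0.05, adjusted p = 0.00015) and Mgrn1, a ubiquitin ligase of this pathway (-0.31, SE 0.05, adjusted p = 0.0022). The steroid-making enzymes Cyp11a1 and Cyp17a1, which ACTH signalling regulates in the adrenal, were at most 0.125 FPKM in any library. Star, of the same pathway, was detected in every library. It was at 1.4 and 1.13 FPKM in B16-F1, 1.14 and 0.999 in B16-F1R2, then 0.6 and 1.1 in B16-F1R2L. Nr5a1, the nuclear receptor SF-1 of adrenal and gonad, was a member, with 0 in B16-F1, 10.7 and 9.78 FPKM in B16-F1R2, then 9.99 and 8.93 in B16-F1R2L. Its partner Nr0b1 was listed at 0 throughout.

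Fxyd1 encodes phospholemman, a small membrane protein that regulates the sodium pump in heart and muscle. It was at 0 in B16-F1, at 22.7 and 22 FPKM in B16-F1R2, then at 30.2 and 27.6 in B16-F1R2L. Both B16-F1R2L values lay above both B16-F1R2 values, and the member was called higher (log2 difference 0.37, SE 0.09, adjusted p = 0.034), though in 6 of 15 alternatives it missed the threshold (adjusted p from 0.016 to 0.15). Of the 14 other genes of a list of FXYD proteins and pump subunits, 6 were tested between B16-F1R2 and B16-F1. Among those called, Fxyd5 (log2 difference 1.84, SE 0.13, adjusted p = 8.6e-05) and Fxyd3 (0.98, SE 0.34, adjusted p = 0.05 after rounding) were higher, and Atp1b3 was lower (-0.65, SE 0.04, adjusted p = 3.2e-05). Fxyd3 was under 1 FPKM in B16-F1 and B16-F1R2 and passed the filter only through B16-F1R2L.

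Lrmp encodes an endoplasmic reticulum protein of lymphocytes and taste cells that binds inositol trisphosphate receptors. It was at 0 in B16-F1, at 24.8 and 21.9 FPKM in B16-F1R2, then at 24.4 and 21.7 in B16-F1R2L, with overlapping values in the metastasis lines. Its exons overlap those of Casc1 on the opposite strand, which stayed under 0.1 FPKM in every library. The receptor Itpr1 was at 20.3 to 22 FPKM in all 6 libraries. Of the 12 other genes of a list of Lrmp relatives, these receptors and nuclear envelope linkers, 8 were tested between B16-F1R2 and B16-F1, and Itpr3 (log2 difference 0.91, SE 0.17, adjusted p = 0.0044) and the linker Syne3 (1.32, SE 0.10, adjusted p = 8.4e-05) were higher. Prkg1, a cGMP-dependent kinase, was lower (-2.03, SE 0.10, adjusted p = 2.2e-05).

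**Figure D4:**
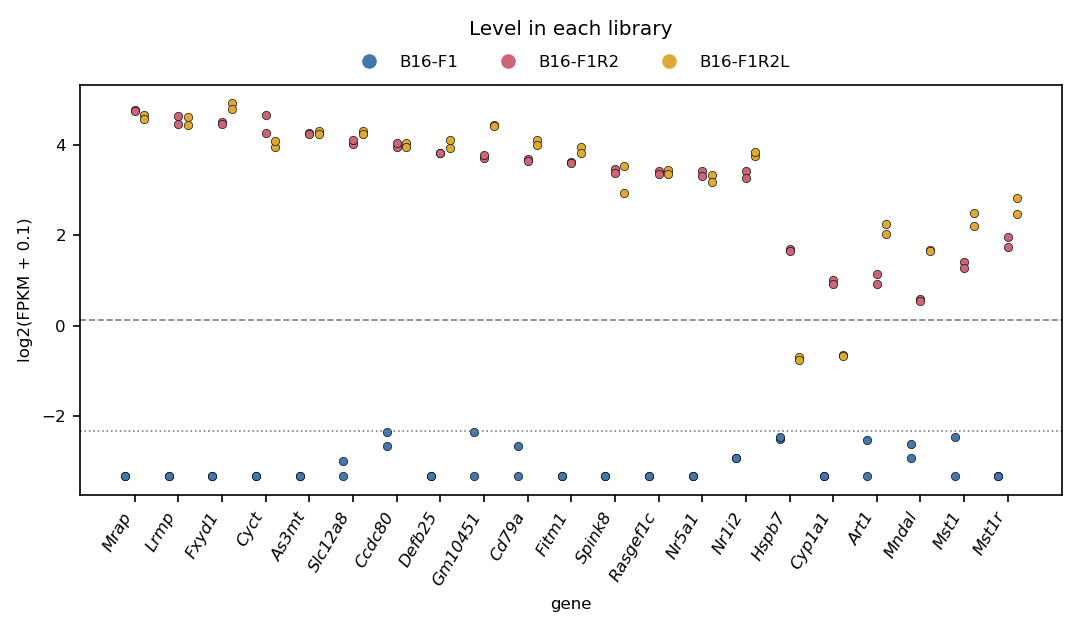
Level in each library, log2(FPKM + 0.1), of the 15 members with the highest mean in B16-F1R2 and of 6 further members, with 2 points per line (B16-F1 blue, B16-F1R2 red, B16-F1R2L yellow). The dashed line marks 1 FPKM and the dotted line 0.1 FPKM; for all but Hspb7 and Cyp1a1 the yellow points stay above the dashed line.

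The largest group by role was made of 30 genes known from blood and immune cells, and all 30 stayed on in B16-F1R2L. Their median level in B16-F1R2 was 2.71 FPKM and their median ratio, B16-F1R2L over B16-F1R2, was 1.17. After Lrmp the most abundant was Cd79a, a signalling chain of the B cell receptor, with 0 and 0.0593 FPKM in B16-F1, 12.7 and 12.4 in B16-F1R2, then 17.1 and 15.9 in B16-F1R2L. Itgb2, the shared beta chain of the leukocyte integrins, had 0.0280 and 0 for B16-F1, 9.11 and 7.35 in B16-F1R2, then 10.9 and 11 in B16-F1R2L. For both genes the partner was scarce. Cd79b, the other chain of the receptor, reached at most 0.395 FPKM, and of the alpha chains Itgal reached at most 0.509 while Itgam and Itgax were listed at 0 in all libraries.

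The group also held signalling proteins of blood cells. Ptpn7, a tyrosine phosphatase of lymphocytes, was at 7.87 and 7.89 FPKM in B16-F1R2, then 9.60 and 8.71 in B16-F1R2L. Nckap1l, the blood cell form of a subunit of the WAVE actin complex, was at 7.77 and 7.40, then at 7.89 and 7.78. Vav1, an exchange factor for small GTPases downstream of antigen receptors, was at 2.35 and 2.31 in B16-F1R2, then 4.02 and 3.96 in B16-F1R2L. Its libraries did not overlap and it was called higher (log2 difference 0.75, SE 0.18, adjusted p = 0.034). P2rx1, an ATP-gated channel of platelets, was also called higher (0.76, SE 0.20, adjusted p = 0.040), with 1.39 and 1.56 FPKM against 2.45 and 2.66.

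Mndal, also in this group and of the family that senses DNA in the nucleus, was at 1.42 and 1.36 FPKM in B16-F1R2, then 3.08 and 3.05 in B16-F1R2L (log2 difference 1.09, SE 0.20, adjusted p = 0.016). The value is uncertain, because 28% of its 50-base stretches also occur in other genes, mostly in Ifi203, which was itself at 1.06 and 1.1 FPKM in B16-F1R2, then 2.21 and 2.30 in B16-F1R2L. Epsti1, induced by interferon, was at 2.47 and 2.67, then at 4.71 and 4.12 (0.76, SE 0.17, adjusted p = 0.030). Apobec3, which edits viral DNA, Nlrc5, a regulator of class I antigen presentation, and the receptor Tlr6 were on in both metastasis lines and were not called. Tlr6 shares 17.8% of its stretches with other genes, most with Tlr1, and Apol9a shares 52.5%, most with Apol9b.

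Most, but not all, of the listed marker genes of blood cells were under 1 FPKM in all 6 libraries (16 of 18 lymphoid and 12 of 15 myeloid genes). Of the 18 genes of a T, NK and B cell list that are in the table, 7 were at 0 in all libraries and 14 under 0.1 FPKM, among them Ptprc (CD45), the common surface marker of white blood cells, and Cd3e, both at 0 throughout. Without Cd79a, the list summed to 0.41 to 0.432 FPKM in B16-F1, 1.81 to 2.6 in B16-F1R2 and 2.36 to 2.45 in B16-F1R2L. Of that list only Lck, a T cell kinase, was tested and higher in B16-F1R2 than B16-F1 (log2 difference 1.44, SE 0.24, adjusted p = 0.0028), at 0.276 and 0.33 FPKM in B16-F1, then 1.12 and 0.873 in B16-F1R2, then 1.15 and 1.54 in B16-F1R2L. Of 15 myeloid markers in the table, 8 were at 0 throughout, and the list summed to 2.06 to 2.73 FPKM in B16-F1, then 2.83 to 4.33 in B16-F1R2 and 4.59 to 5.88 in B16-F1R2L. Spi1, a myeloid transcription factor, was higher in B16-F1R2 than B16-F1 (adjusted p = 0.0012), with 0.0862 and 0 FPKM, then 0.692 and 0.723, and 1.31 and 1.28 in B16-F1R2L. Lyz2, the lysozyme of macrophages, was also higher (adjusted p = 0.044), with 0.17 and 0.625 FPKM, then 0.916 and 1.17, and B16-F1R2L had 2.05 and 1.5. Lck, Spi1 and Lyz2 were under 1 FPKM in both B16-F1 libraries and passed the filter only through the metastasis lines, which favoured a call of higher. Cd68 was at 0.983 to 2.67 FPKM over the 6 libraries, with 1.02 and 1.76 in B16-F1. In bulk RNA, fewer cells of a type and less RNA per cell cannot be told apart. Of 14 melanocyte markers, 12 were lower in B16-F1R2 than B16-F1, with sums of 15570 and 15627 FPKM in B16-F1, 8410 and 8183 in B16-F1R2, then 9270 and 9254 in B16-F1R2L. The part of these marker levels in the values of the members was not tested.

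Muscle and contractile genes made up 15 members, of which 14 stayed on. Fitm1, which helps to form lipid droplets in muscle, was at 12.2 and 12.0 FPKM in B16-F1R2, then 15.5 and 14 in B16-F1R2L. Myoz1, a protein of the sarcomere's Z-disc, was at 8.79 and 8.31, then at 10.5 and 12.3. Fbp2 and Pygm, the muscle forms of fructose bisphosphatase and glycogen phosphorylase, were at 7.63 and 7.86 and at 6.97 and 7.58 in B16-F1R2 and were not called. The group also held the Z-disc protein Ldb3, the junctional protein Jph2 and the smooth muscle genes Actg2, Tpm2 and Lmod1. Of 16 muscle markers, none of them a member, Des (desmin), Tnnt1 (slow troponin T) and Casq1 (calsequestrin of fast muscle) were tested and were higher in B16-F1R2 than B16-F1, with log2 differences of 3.24, 1.88 and 5.70 (SE 0.09, 0.27 and 0.21, adjusted p at most 0.0016). Des, Tnnt1 and Casq1 were under 1 FPKM in both B16-F1 libraries and passed the filter only through the metastasis lines. This favoured a call of higher, so their differences serve as descriptions. The muscle regulators Myod1 and Myog were listed at 0 in all libraries.

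Hspb7, a small heat shock protein of heart and muscle, was the member that fell most in B16-F1R2L. It was at 0.0777 and 0.0818 FPKM in B16-F1, 3.13 and 3.04 in B16-F1R2, then 0.524 and 0.492 in B16-F1R2L, so it kept about 0.164 of its B16-F1R2 level (log2 difference -2.39, SE 0.21, adjusted p = 0.0026, from 0.00027 to 0.020 over the 12 alternatives that could be fitted for it). No library of these lines overlapped. Art1, an ADP-ribosyltransferase of muscle, went the other way, from 1.79 and 2.10 FPKM to 3.99 and 4.63 (1.11, SE 0.29, adjusted p = 0.041), and in 9 of its 14 alternatives this missed the threshold.

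The 13 secreted proteins of plasma, defence and growth control all stayed on and none was called. Defb25, a beta-defensin, led them with 0 in B16-F1, 14 and 14.1 FPKM in B16-F1R2, then 17.1 and 15.2 in B16-F1R2L. Spink8, of a family of protease inhibitors, was at 11 and 10.3, then at 11.4 and 7.55. Plasma proteins of the liver were represented by F2 (prothrombin), at 5.87 and 4.98 in B16-F1R2, then 5.84 and 5.03 in B16-F1R2L, by Cpn1 (a carboxypeptidase that trims complement peptides), at 5.83 and 4.64, then at 5.71 and 5.21, and by Igfals, which binds insulin-like growth factors in plasma. The acute-phase gene Saa3 was at 6.99 and 5.65, then at 10.1 and 7.28. Bpi and Lbp, related proteins that bind bacterial lipopolysaccharide, are neighbours on chromosome 2 and were both members.

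A ligand and its receptor were both in the set. Mst1 encodes macrophage-stimulating protein and Mst1r its receptor, the tyrosine kinase RON. Mst1 was at 0.0817 and 0 FPKM in B16-F1, 2.58 and 2.34 in B16-F1R2, then 4.52 and 5.54 in B16-F1R2L (log2 difference 1.00, SE 0.30, adjusted p = 0.058, not called). Its exons overlap those of Rnf123 on the opposite strand, which was at 13.7 to 17 FPKM in all libraries. Mst1r was at 0 in B16-F1, 3.27 and 3.80 in B16-F1R2, then 5.48 and 6.96 in B16-F1R2L, and it was called higher (0.79, SE 0.18, adjusted p = 0.030). For both genes the B16-F1R2L libraries lay above the B16-F1R2 libraries. In mm9 both lie on chromosome 9, Mst1r from 107809220 to 107822714 and Mst1 from 107982767 to 107987358. This pair was picked out after its values had been seen.

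Among the other surface and epithelial genes, 16 with Mrap and Mst1r, 13 stayed on. They included the tight junction protein Cldn9, the receptor phosphatase Ptprf and Macc1, a regulator of the hepatocyte growth factor receptor, at 1.88 and 1.9 FPKM in B16-F1R2, then 2.23 and 2.56 in B16-F1R2L. Those between the limits were Pcdh12 (a protocadherin of endothelium), with 1.37 and 1.80, then 1.02 and 0.877, Shroom3 and Eda2r (a receptor of the tumour necrosis factor family), with 1.05 and 1.31, then 0.771 and 0.671. None of these 3 was called. Of 13 epithelial markers, all were under 1 FPKM in every library, and Epcam reached at most 0.0451. Of 12 endothelial markers 7 were at 0 throughout, among them Cdh5 and Kdr. Pecam1 and Vwf were higher and Prox1 lower in B16-F1R2 than B16-F1. The first pair was under 1 FPKM in B16-F1 and passed the filter only through the metastasis lines.

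All 9 matrix and guidance proteins stayed on. Ccdc80, a matrix-associated protein, had 0.0962 and 0.0600 FPKM in B16-F1, 15.3 and 16.4 in B16-F1R2, then 16.4 and 15.4 in B16-F1R2L, and the next, Tnxb (tenascin X), had a mean of only 2.07 in B16-F1R2 (2.41 in B16-F1R2L). The group also held Emilin2, Fbln7 (a fibulin), Matn4 (a matrilin), the metalloproteinase inhibitor Timp4 and the guidance proteins Ntn5, Sema3g and Draxin. None was called. Of 13 fibroblast and pericyte markers, Pdgfrb and Postn were higher and Pdpn lower in B16-F1R2 than B16-F1, and 5 were at 0 in all libraries. Pdgfrb and Postn were under 1 FPKM in B16-F1 and passed the filter only through the metastasis lines.

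The transport group of 9 genes, Fxyd1 among them, held carriers of gut, liver and kidney. Slc51a, the alpha subunit of the bile salt exporter of the ileum, was at 0.0599 and 0 FPKM in B16-F1, 7.22 and 7.59 in B16-F1R2, then 8.89 and 8.61 in B16-F1R2L. Its partner subunit Slc51b was listed at 0 in all libraries. Abcg8, a sterol exporter that works as a pair with Abcg5, was at 1.87 and 1.76, then at 2.16 and 2.73, while Abcg5 itself reached 0.253 and 0.625 in B16-F1R2, then 0.634 and 1.04 in B16-F1R2L. Slc12a8, of the cation-chloride cotransporter family, was at 16.1 and 17.1, then at 19.8 and 18.8. Aqp2, the water channel of the kidney collecting duct, was at 4.63 and 3.80, then at 4.04 and 3.76, and Slc4a5 (a sodium bicarbonate transporter) and Abca4 (the retinal lipid flippase) were also on. Only Slc39a2 was below the limit, in a single library, with 0.802 and 1.38.

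Metabolic enzymes gave 8 members. As3mt, which methylates arsenic, was among the most even members, with 0 in B16-F1, 19.2 and 18.9 FPKM in B16-F1R2, then 19.8 and 18.9 in B16-F1R2L. Ddc, the decarboxylase that makes dopamine and serotonin, was at 7.28 and 8.70, then at 7.48 and 7.34. Cyp1a1, the cytochrome P450 that the aryl hydrocarbon receptor induces, fell from 1.91 and 1.80 FPKM in B16-F1R2 to 0.544 and 0.535 in B16-F1R2L (log2 difference -1.61, SE 0.25, adjusted p = 0.011, from 0.00098 to 0.054 over 12 alternatives). The receptor gene Ahr was at 4.50 and 5.50 in B16-F1R2, then 4.32 and 4.12 in B16-F1R2L, and at 2.14 and 2.35 in B16-F1. Sec1, a fucosyltransferase, was called higher in B16-F1R2L (0.51, SE 0.14, adjusted p = 0.050 after rounding, missing the threshold in 9 of 15 alternatives), with 4.22 and 4.07 FPKM, then 5.91 and 5.95. Its exons overlap those of Ntn5, another member, on the opposite strand.

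All 8 transcription regulators stayed on. Nr1i2, the xenobiotic receptor PXR of liver and gut, had 0.0314 and 0.0329 FPKM in B16-F1, 10.7 and 9.56 in B16-F1R2, then 13.3 and 14.2 in B16-F1R2L, and it was called higher (log2 difference 0.44, SE 0.11, adjusted p = 0.039, missing the threshold in 8 of 15 alternatives). Its classic target in liver, Cyp3a11, was listed at 0 in every library. Zscan10, a zinc finger factor of pluripotent cells, was at 3.23 and 3.26, then at 4.1 and 4.05. Hoxc6, Mamstr (a coactivator of muscle genes), Rorb, Lyl1 (a factor of blood progenitors) and Aire (which lets the thymus express tissue-restricted genes) were the lower members of the group, with means of 1.18 to 2.76 in B16-F1R2.

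Neuronal, glial and photoreceptor genes gave 12 members, of which 11 stayed on. Ngfr, the low-affinity neurotrophin receptor of neural crest cells and glia, had 0.0748 and 0.0526 FPKM in B16-F1, 6.57 and 8.05 in B16-F1R2, then 10.5 and 10.3 in B16-F1R2L (log2 difference 0.51, SE 0.15, adjusted p = 0.051, not called). Map1a, a microtubule-associated protein, was at 5.73 and 6.19 in B16-F1R2, then 5.31 and 4.80 in B16-F1R2L. Cabp7, a calcium-binding protein, varied within the lines, with 4.21 and 2.52, then 2.76 and 1.49, and overlaps Zmat5 on the opposite strand, which was at 44.5 to 56 FPKM. Gngt2, the G protein gamma subunit of cones, was at 1.29 and 1.37, then at 1.18 and 0.787. Among the neural and glial markers other than Ngfr, Tubb3, Gfap, Mbp and Ncam1 were higher and S100b was lower in B16-F1R2 than B16-F1. Of these, Gfap was under 1 FPKM in B16-F1 and passed the filter only through the metastasis lines.

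Germ cell, cilium and early embryo genes gave 7 members, and all stayed on. Cyct, the cytochrome c of testis, had 0 in B16-F1, 25.3 and 19 FPKM in B16-F1R2, then 15.5 and 16.8 in B16-F1R2L, without overlap between the metastasis lines (log2 difference -0.44, SE 0.15, adjusted p = 0.081, not called). L1td1, an RNA-binding protein of embryonic stem cells, was at 9.15 and 10.4, then at 7.78 and 8.03. Zp3, a protein of the egg coat, was called lower, from 8.00 and 7.21 to 4.18 and 5.60 (-0.64, SE 0.18, adjusted p = 0.050 after rounding, missing the threshold in 11 of 15 alternatives with an adjusted p of up to 0.22), while Wdr93, a WD-repeat gene, was called higher with 1.66 and 1.24, then 2.84 and 2.61 (0.88, SE 0.23, adjusted p = 0.042). Of 29 germline and cancer testis genes in the table, 20 were at 0 in all libraries. Tex101, a surface protein of germ cells, was the only member among them, and Piwil2, which acts with small RNAs against transposons, was higher in B16-F1R2 than B16-F1 (log2 difference 5.47, SE 0.21, adjusted p = 7.0e-06). Piwil2 was under 1 FPKM in B16-F1 and passed the filter only through the metastasis lines, which favoured this call.

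The 34 members without an assigned role were mostly uncharacterised transcripts, and 31 stayed on. Gm10451 led them with 0 and 0.0960 FPKM in B16-F1, 13.0 and 13.5 in B16-F1R2, then 21.5 and 21.3 in B16-F1R2L. These libraries did not overlap, yet the gene was not called (log2 difference 0.69, SE 0.29, adjusted p = 0.13), and the spread in this fit takes in its B16-F1 values of 0 and 0.0960. It was called in 4 of 15 alternatives (adjusted p from 0.0036 to 0.64). Rasgef1c (an exchange factor for small GTPases) was at 10.7 and 10.1, then at 10.8 and 10.2. Fam167b, with 5.88 and 6.98, then 10.4 and 10.2 FPKM (0.68, SE 0.14, adjusted p = 0.021), and 1700040L02Rik (0.77, SE 0.21, adjusted p = 0.047, missing the threshold in 10 of 14 alternatives) were called higher. The uncharacterised 1700019B21Rik was called lower (-0.94, SE 0.23, adjusted p = 0.035), with 2.16 and 2.72 FPKM, then 1.14 and 1.29.

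**Figure D5:**
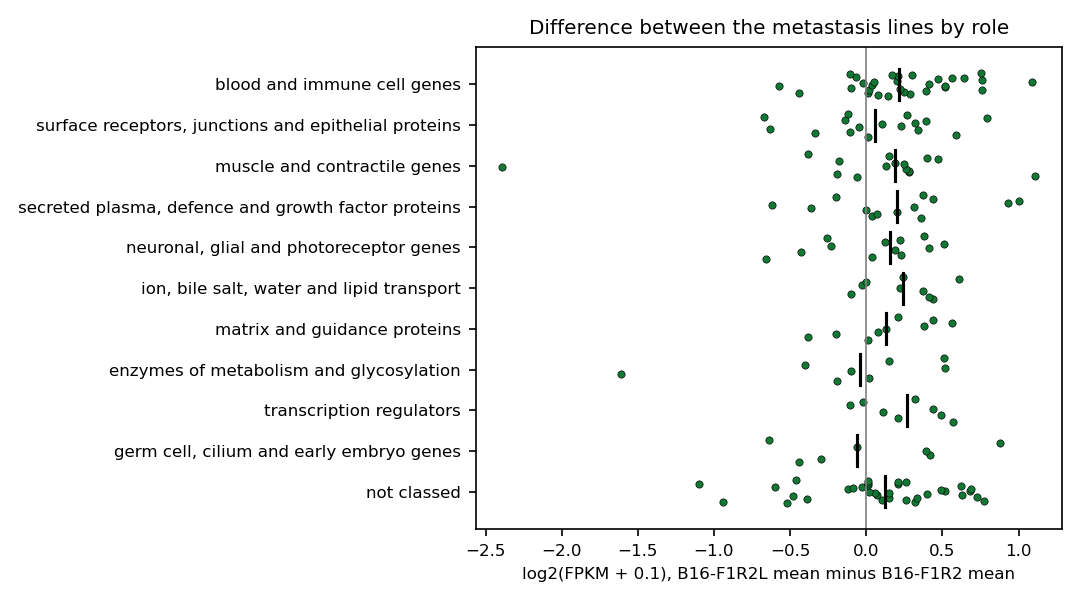
Difference between the metastasis lines for each of the 161 members (points), as the B16-F1R2L mean minus the B16-F1R2 mean on the log2(FPKM + 0.1) scale, by role (rows). Black bars are medians of the group; Hspb7 at -2.39 and Cyp1a1 at -1.61 lie furthest to the left and Art1 at 1.11 furthest to the right.

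The members were spread over the genome. Of the 148 with a single position in mm9, 143 were protein coding, and they lay on every autosome and on chromosome X. Chromosome 7 held most, with 17 members (11.5%, where it holds 9.24% of all genes with a position), followed by chromosome 2 with 14 (9.46% against 8.71%). Directly neighbouring members formed 7 pairs: Fstl3 and Prss57, Ddc and 1700042O10Rik, Faim2 and Aqp2, Bpi and Lbp, Fxyd1 and Lgi4, Sec1 and Ntn5, and 3830403N18Rik and Gm773. Fxyd1 and Lgi4, a secreted protein of Schwann cells, run in opposite directions with 3685 bases between them. Exons of 28 members overlap another gene on the opposite strand and those of 4 on the same strand. The 275 nearest tested genes that are not members had a median log2 difference, B16-F1R2 minus B16-F1, of 0.02. Of these neighbours 33.5% were higher and 25.1% lower in B16-F1R2, where 27.2% and 27.6% of all tested genes outside the set were.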

How the data were processed

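RNA from cells of the 3 lines (2 libraries each) was poly(A)-selected and sequenced by the authors with a stranded kit. The authors deposited a single table of FPKM for 23951 genes, made per the labels from reads aligned to mm9. The submitters' processing notes name FastQC 0.10.1, TopHat2 2.0.10, Bowtie 1.0.0, SAMtools 0.1.1.9, Cuffnorm and DESeq2, and the gene annotation is not given in the sources used here. FPKM are not counts, so no count test was run. The main test was limma 3.58.1 (R 4.3.3; lmFit, contrasts.fit, eBayes with a trend) on log2(FPKM + 0.1) of the 11379 genes that 2 or more libraries showed at 1 FPKM or above. All 6 libraries were fitted without a block, and p-values were Benjamini-Hochberg adjusted over all genes tested with a threshold of 0.05. Genes under 1 FPKM in both B16-F1 libraries could pass only through the metastasis lines, which favoured calls of higher in B16-F1R2. A difference on this scale understates the change of low genes. The limma fit was also run on simulated data with added changes between the metastasis lines. That simulation gave B16-F1 the B16-F1R2 level, so it does not cover the members, which are near 0 in B16-F1.

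Depth was estimated from the smallest FPKM of genes with 1 annotated transcript and is approximate. Positions and overlaps came from the mm9 annotation (20721 symbols, 86.5%, had 1 position), and shared sequence was counted as 50-base stretches present in another gene. Start windows came from the RefSeq table of GRCm38.p6, and coordinates in mm9 came from exact matches. Python 3.11.15 with numpy 2.4.6, pandas 2.3.3 and matplotlib 3.10.9 served for these steps.

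The members, gene lists and roles were chosen with earlier results of these data known. Genes were named by rule: the markers Mrap, Lrmp and Fxyd1, the 10 members highest in B16-F1R2, members called between the metastasis lines (at most 10 in each direction), those nearest each limit on either side, members of a gene list, neighbouring members and up to 5 members for each role. Others were named after their values were seen, among them the partner genes of members. Some genes are not reported here. An adipocyte list of 11 genes stayed under 1 FPKM in all libraries, and Xist and Y-linked genes (10 in all) stayed under 0.1 FPKM. Alternatives were other limits, pseudocounts, filters and scalings, eBayes without a trend, 4 libraries only, a block for the replicate number and leaving out each library.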

Additional observations from a re-analysis of the deposited data

How the results depend on the processing

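The 161 members became 256 with a B16-F1R2 limit of 0.5 FPKM and 85 with a limit of 2, of which 84 were on in B16-F1R2L. With a limit of 2 FPKM in B16-F1R2L, 99 members were on there. Leaving out 1 library gave 175 to 194 members and 153 to 182 on in B16-F1R2L. The number silent there was 0 to 1, and that gene was AF357399, at 55.6 FPKM in the first B16-F1R2 library and at 0 elsewhere.

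The limma counts for B16-F1R2L against B16-F1R2, 12 higher and 4 lower, were 31 and 11 with a pseudocount of 1, 0 and 1 with a pseudocount of 0.01 (10 higher at an unadjusted p under 0.05), 21 and 11 without a trend, 25 and 7 with only 4 libraries, and 1 and 0 with a filter of 5 FPKM, where 45 members were fitted (1 lower at an unadjusted p under 0.05). Without a filter 3 were higher, and after rescaling to a sum of 1000000 there were 2 lower. Leaving out 1 library gave 0 to 17 higher and 0 to 3 lower. The cause was not tested. The replicate numbers did not pair the samples (correlations of deviations of 0.05, -0.10 and 0.08), and a replicate block gave 6 higher and 2 lower, all 8 among the 16 called without it. Of the 3 pathway lists, 9 genes were called between B16-F1R2 and B16-F1, and 7 to 11 under the alternatives. Depth limits the silent state, since 0.1 FPKM is worth under 1 read for 9 members.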
